A study of Mus musculus with 6 samples.

Results

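This account follows 10 genes of the matrix that surrounds cells in the newborn heart, in ventricular mRNA of male C57BL/6 mice of 2 ages. The genes were given by name: the matricellular proteins Postn, Tnc, Sparc, Thbs1 and Thbs4, fibronectin (Fn1), and the hyaluronan matrix genes Has2, Vcan, Hapln1 and Cd44. The count table holds 14495 genes, and 8 of the 10 were found there by symbol; Has2, which makes hyaluronan, and Hapln1, which links hyaluronan to versican, were not analysed here. All 8 passed the filter on low counts and were tested among 14301 genes. The groups are P1 (postnatal day 1) and P14 (postnatal day 14), untreated animals with no allele or agent named in the labels. Each age has 3 libraries, and each library is a pool of 3 hearts, 9 hearts per age, so that pools and not single animals are the replicates. Atria had been removed and the septum kept according to the collection protocol, whereas the tissue field names only the left ventricle. Total counts per library ran from 5916557 in P1 replicate 3 to 17353933 in P1 replicate 1, and the smallest count of any of the 8 genes was 41, for Tnc in P14 replicate 2. Of 10 cardiomyocyte markers the 3 highest at P1 were Myl2, Actc1 and Tnnt2, with means of 20783, 19503 and 8951 CPM (read counts divided by library size and scaled to a common total, with TMM factors, which balance the bulk of genes between libraries). P1 replicate 2 had the lowest mean correlation with its own age (0.953, the others 0.963 to 0.976), and Ckm, the muscle creatine kinase, stood at 687 CPM there against 2960 and 1926 CPM in the other P1 libraries. Without that library 6 of the 8 matrix genes were called, as were 47.2% of all genes tested, with Thbs1 closest to the threshold (log2 fold change −1.04, adjusted p = 0.0245 in edgeR).

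Matricellular proteins are secreted into the matrix but act mainly on cells, by binding integrins and other receptors and by changing how cells attach to the matrix. Fibronectin forms the provisional matrix on which cells spread and onto which collagen is laid, and hyaluronan, a long sugar polymer made at the cell surface, forms with the proteoglycan versican a hydrated matrix that cells sense through the receptor CD44. In the heart these proteins are known from the cushions that form the valves, from fibroblasts of the growing ventricle, and from the repair of injured myocardium. The newborn mouse heart can regrow muscle after injury for a few days after birth, which is why the matrix of this period is of interest.

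At P14, 6 of the 8 genes were lower than at P1. Postn (periostin) fell 5.04-fold, Vcan 4.50-fold, Thbs4 3.62-fold, Tnc 3.47-fold, Fn1 2.53-fold and Thbs1 2.22-fold. Cd44 and Sparc did not pass the test. "Fell" and "rose" are used here for genes lower or higher at P14 with a Benjamini-Hochberg adjusted p under 0.05 over all tested genes in edgeR's quasi-likelihood test. Of the 14301 tested genes 43.8% were called in either direction by this rule, 22% fell and 21.8% rose. All 6 fell at least 2-fold, as did 13.5% of tested genes. The ranges of the 3 P1 and 3 P14 libraries did not overlap in the same 6 genes, against 54.8% of tested genes. On the log2 scale the median change was −1.57 for the 8 genes and −0.01 for the 14301 tested genes.

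Proximal promoters are shown for Postn, Tnc and Thbs4, picked from the genes that fell because a search found matches in them. Each is the 250 bases before the RefSeq start site in GRCm38.p6, read 5′ to 3′ on the strand of the gene, and capitals mark the matches. The windows lie at chr3:54360857-54361106 (plus strand) for Postn, chr4:64047016-64047265 (minus strand) for Tnc and chr13:92794819-92795068 (minus strand) for Thbs4.
Postn: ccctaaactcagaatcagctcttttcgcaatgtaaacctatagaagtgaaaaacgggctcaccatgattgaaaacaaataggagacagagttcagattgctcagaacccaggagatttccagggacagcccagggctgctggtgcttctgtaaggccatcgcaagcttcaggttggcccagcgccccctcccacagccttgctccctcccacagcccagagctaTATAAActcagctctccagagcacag
Tnc: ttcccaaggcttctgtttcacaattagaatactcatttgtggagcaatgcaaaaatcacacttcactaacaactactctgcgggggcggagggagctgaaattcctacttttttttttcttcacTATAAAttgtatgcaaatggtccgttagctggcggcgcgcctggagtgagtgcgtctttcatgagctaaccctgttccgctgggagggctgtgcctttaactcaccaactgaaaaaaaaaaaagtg
Thbs4: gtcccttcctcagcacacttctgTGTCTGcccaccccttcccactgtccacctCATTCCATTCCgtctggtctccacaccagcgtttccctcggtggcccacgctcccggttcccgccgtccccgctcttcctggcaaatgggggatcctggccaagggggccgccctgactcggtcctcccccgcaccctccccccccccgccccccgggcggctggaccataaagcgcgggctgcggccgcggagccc

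Windows of 300 bases, from 250 before to 50 after the start site, were searched on both strands for TATAAA (the TATA box), GGAATG (the core bound by TEAD factors), CAGACA (a core bound by SMAD factors) and TGANTCA (the AP-1 site). The Postn window held TATAAA 26 bases before the start site, and the Tnc window held it 126 bases before. The Thbs4 window held GGAATG on the opposite strand at 197 and 192 bases before the start site, matches that overlap by their end bases, and CAGACA on the opposite strand 227 bases before it. The Tnc window also held CAGACA on the opposite strand 8 bases after the start site, outside the stretch printed. Of all 32851 RefSeq windows, 13.62% held TATAAA, 14.66% GGAATG, 21.04% CAGACA and 7.81% TGANTCA. No motif was shared by all 3 genes, and the windows of Vcan and Cd44 held none of these letters. The window of Sparc, which did not fall, held CAGACA on the opposite strand 36 bases before and 14 bases after its start site. A match in a window describes the letters there and not binding, and a link of the matches to the falls was not tested. RefSeq windows were matched for 6 of the 8 genes. Fn1 and Thbs1, which also fell, had no window and were not searched. The window of Sparc starts 3103 bases from the gene start in GENCODE M21 and is not shown.

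Postn encodes periostin, a matricellular protein made by cardiac fibroblasts and valve cells that binds integrins and promotes collagen cross-linking (ENSMUSG00000027750; GRCm38 chromosome 3, 54361109 to 54391037). Replicates 1 to 3 of P1 had TMM-scaled CPM of 444, 612 and 368, and those of P14 had 105, 69.6 and 108; the same order of replicates is used below. Every P1 library stood far above every P14 library. The log2 fold change was −2.33 ± 0.25 (SE, n = 3 libraries per age; edgeR adjusted p = 5.91e-06). P1 replicate 2 was the highest P1 library, and without it the log2 fold change was −2.11.

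Tnc encodes tenascin-C, a large protein of embryonic and injured tissue that loosens the attachment of cells to fibronectin (ENSMUSG00000028364; chromosome 4, 63959785 to 64047015). The P1 libraries had 21.0, 26.2 and 21.7 CPM and the P14 libraries 6.76, 5.44 and 7.60 CPM. The groups lay far apart relative to their spread, and the log2 fold change of Tnc was −1.80 ± 0.24 (adjusted p = 3.68e-05 in edgeR).

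The thrombospondins bind calcium, matrix and cell surface receptors; Thbs1 also activates latent TGF-beta and blocks vessel growth, and Thbs4 is a pentameric form found in tendon and in heart under load. Thbs4 (ENSMUSG00000021702; chromosome 13, 92751590 to 92794818) had 40.7, 28.2 and 41.1 CPM at P1 and 10.2, 8.36 and 11.7 CPM at P14. Here P1 replicate 2 was the lowest P1 library, the reverse of its place for Postn and Tnc. Thbs4 changed by −1.85 ± 0.24 on the log2 scale (adjusted p = 2.89e-05 in edgeR). Thbs1 (ENSMUSG00000040152; chromosome 2, 118111876 to 118127133) had 25.3, 31.3 and 24.8 CPM at P1 and 6.55, 13.4 and 17.3 CPM at P14. The P14 libraries were spread more widely than for the other genes that fell, with P14 replicate 1 lowest, and the highest P14 value came closer to the lowest P1 value. Its log2 fold change was −1.15 ± 0.30 (edgeR adjusted p = 0.00714) and −0.82 without P14 replicate 1 (edgeR adjusted p = 0.0209). When the test asked for a change above 1.5-fold, the call of Thbs1 ended (edgeR adjusted p = 0.0501).

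Sparc (osteonectin) binds collagen and helps its assembly into fibrils (ENSMUSG00000018593; chromosome 11, 55394500 to 55423183). It had 1608, 1377 and 1495 CPM at P1 and 2369, 1595 and 2039 CPM at P14. P14 replicate 2 lay just below P1 replicate 1, so the groups overlapped. The log2 fold change was 0.42 ± 0.21 and did not pass (edgeR adjusted p = 0.119). With scaling by library totals alone it was −0.028, so its sign depends on the scaling.

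**Figure D1:**
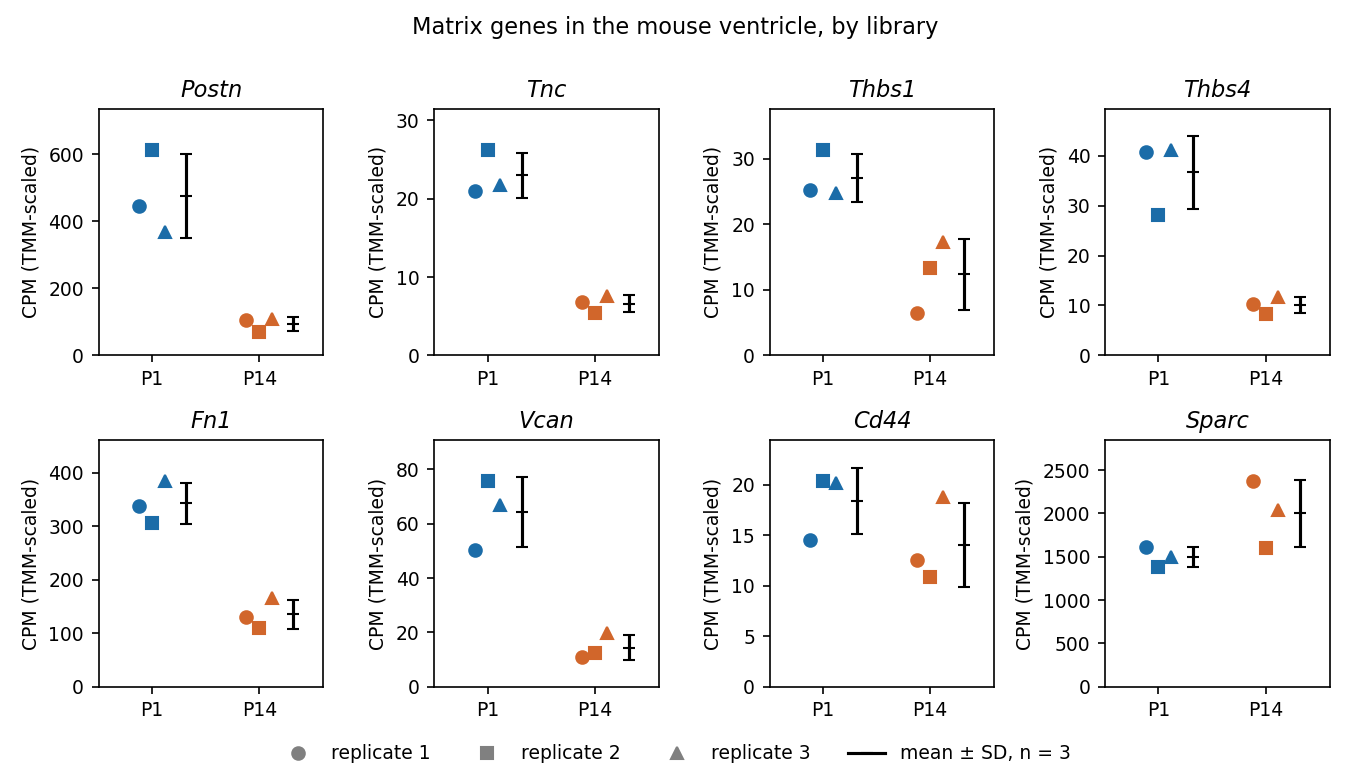
TMM-scaled CPM (y axis, from 0) of 8 matrix genes in each library at P1 and P14 (x axis); symbols stand for replicates and black bars for the mean ± SD of 3 libraries. In Postn, Tnc, Thbs1, Thbs4, Fn1 and Vcan every P1 library lies above every P14 library, while Cd44 and Sparc overlap.

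Fn1 encodes fibronectin, the integrin ligand of provisional matrix (ENSMUSG00000026193; chromosome 1, 71585520 to 71653200). It had 338, 307 and 384 CPM at P1 and 130, 111 and 165 CPM at P14. The P1 libraries all stood above the P14 libraries, and Fn1 changed by −1.34 ± 0.21 on the log2 scale (adjusted p = 1.67e-04 in edgeR). Fn1 has 17 annotated transcripts, and a count per gene does not tell its splice forms apart.

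Of the hyaluronan matrix, Vcan and Cd44 were measured. Vcan encodes versican, the hyaluronan-binding proteoglycan of cushions and expanding tissue (ENSMUSG00000021614; chromosome 13, 89655312 to 89742509). It had 50.3, 75.6 and 66.8 CPM at P1 and 10.9, 12.5 and 19.7 CPM at P14. The log2 fold change was −2.17 ± 0.26 (edgeR adjusted p = 1.41e-05), second in size to that of Postn. Cd44 encodes the main cell surface receptor for hyaluronan, carried by leukocytes and mesenchymal cells (ENSMUSG00000005087; chromosome 2, 102811141 to 102901665). It had 14.6, 20.3 and 20.2 CPM at P1 and 12.5, 10.9 and 18.8 CPM at P14, so P14 replicate 3 lay within the range of P1. Its log2 fold change of −0.38 ± 0.26 did not pass (edgeR adjusted p = 0.244). With totals alone it was −0.84 and passed (edgeR adjusted p = 0.0119), which made 7 calls among the 8 genes; with that scaling 50.4% of all tested genes were called and 39.1% fell.

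Exons of genes annotated as noncoding on the opposite strand (8030451A03Rik, Gm29233 and Apol7d) cover 2.26% of the exon bases of Tnc, 3.42% of those of Thbs1 and 2.5% of those of Fn1, and the other 5 genes have none. Strand use in the counting is unknown here. In bulk RNA, fewer cells of a type and less RNA per cell cannot be told apart, which holds for every change given here.

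**Figure D2:**
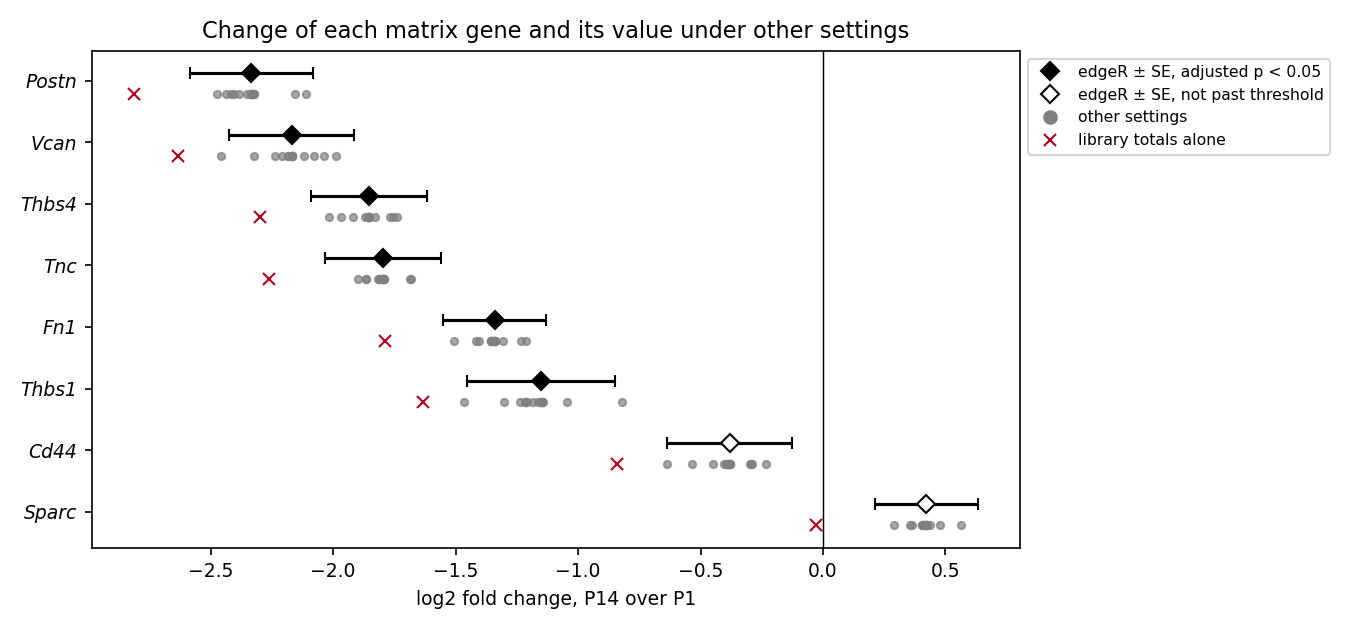
Log2 fold change of P14 over P1 (x axis) for 8 matrix genes (y axis); diamonds with bars are the edgeR estimate ± SE, filled where the adjusted p is under 0.05, grey points are other settings and left-out libraries, and crosses are library totals alone. The filled genes stay below 0 in every setting drawn, and Sparc crosses 0 with totals alone.

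The scaling of libraries matters to these values. TMM scaling assumes that most genes do not change, and with totals alone the median of the 14301 genes shifted to −0.47 from −0.01 (log2) and the share of rises among called genes from 49.7% to 22.5%. Relative to that median the 8 genes stood at −1.56 with TMM and −1.55 with totals alone. Ratios between genes within a library do not depend on the scaling. The log2 ratio of Postn to Sparc counts was −1.86, −1.17 and −2.02 at P1 and −4.49, −4.52 and −4.24 at P14. All P14 libraries lay below all P1 libraries, a difference of −2.73. The log2 ratio of Fn1 to Postn was −0.40, −0.998 and 0.06 at P1 and 0.31, 0.67 and 0.62 at P14, higher in all P14 libraries by 0.97. The log2 ratio of Thbs1 to Thbs4 was −0.69, 0.15 and −0.73 at P1 and −0.64, 0.68 and 0.56 at P14, and its ranges overlapped, although it was higher at P14 in each of the 3 same-numbered pairs, by 0.05, 0.52 and 1.28. In exact two-sided permutation tests over libraries the p was 0.1 for each of the first 2 ratios, the smallest that 3 against 3 allows, and 0.2 for the third; adjusted over the 3 ratios they were 0.15, 0.15 and 0.2, so none passed. Paired by replicate number, each of the 3 ratios gave an exact permutation p of 0.25, the smallest that 3 pairs allow.

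Levels of different genes were compared as CPM per kilobase of annotated exon. At P1 Sparc was highest, at 394 ± 30.6 (SD, n = 3), followed by Postn at 54.6 ± 14.4, Fn1 at 29.3 ± 3.34 and Thbs4 at 11.1 ± 2.24. The ranges of these neighbours did not overlap. Thbs1 (4.46 ± 0.60) and Vcan (4.44 ± 0.89) overlapped each other, as did Tnc (2.95 ± 0.36) and Cd44 (2.71 ± 0.49). At P14 Sparc stood at 528 ± 103 CPM per kilobase, while Fn1 (11.6 ± 2.37) and Postn (10.8 ± 2.45) overlapped. Thbs4, at 3.07 ± 0.51, overlapped Cd44 at 2.08 ± 0.62, which overlapped Thbs1 at 2.04 ± 0.89. Vcan (0.99 ± 0.32), which overlapped Thbs1, and Tnc (0.85 ± 0.14) were lowest and overlapped each other. With the length of the longest transcript in place of all exons, Postn stood above Fn1 at both ages, with 90.9 and 41.2 at P1 and 18.0 and 16.3 at P14.

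**Figure D3:**
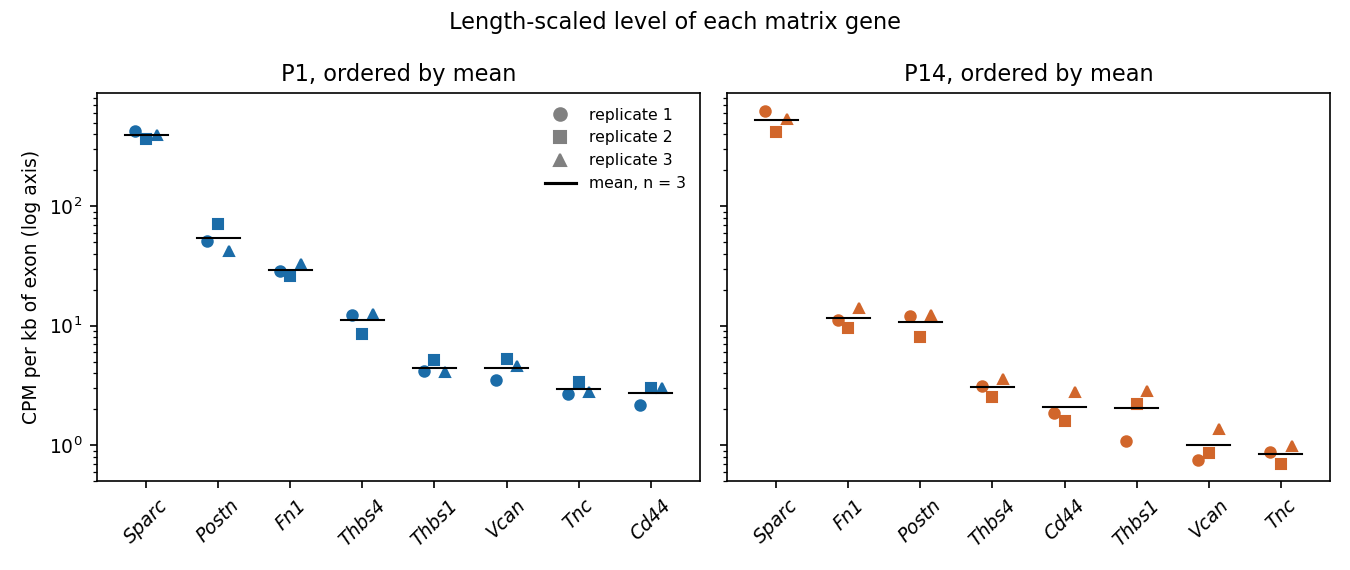
CPM per kilobase of exon (log y axis) of 8 matrix genes at P1 (left) and P14 (right), ordered by mean within each age (x axis); symbols are libraries and lines the mean of 3. Sparc lies above the others at both ages, and Postn and Fn1, apart at P1, overlap at P14.

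The genes whose log2 CPM over the 6 libraries was most like that of Postn, among 9189 genes with a mean of at least 10 CPM at either age, were Gpnmb (Pearson r = 0.999), Impa1 (0.999), Cdk2 (0.998), Golm1 (0.998) and Nsdhl (0.997). Their log2 fold changes were −3.63, −1.27, −1.49, −1.51 and −1.75, in that order. These r values describe 6 libraries of 2 ages and carry no test.

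Other genes of the same systems moved in both directions. The share called was 50% in the hyaluronan list, 50% in the list around versican cleavage, 46.7% in the receptor list and 47.6% in the collagen list. It was 50% in the basement membrane list and 43.8% in the TGF-beta list. These shares lie near the 43.8% of all tested genes, so the counts of these lists are given as description. Of the other matricellular genes 60.9% were called. Among 23 other matricellular genes there were 9 falls, 5 rises and 9 genes not past the threshold (median −0.43 on the log2 scale); with totals alone 14 fell and 5 rose. Among those that fell, Ccn4 went from 24.3 ± 7.35 to 3.85 ± 0.51 CPM and Ccn2, the connective tissue growth factor, from 372 ± 143 to 88.3 ± 9.06 CPM. Thbs2, the closest relative of Thbs1, fell 1.57-fold, and leaving out P1 replicate 3 (adjusted p = 0.0508 in edgeR) or P14 replicate 1 (0.0714) ended its call. The 5 that rose were Tnxb, Smoc2, Comp, Fbln1 and Ccn5. Tnxb, the tenascin of mature connective tissue, went from 17.39 ± 7.92 to 68.8 ± 10.3 CPM, opposite to Tnc. Smoc2, a relative of Sparc, went from 22.1 ± 1.90 to 82.5 ± 9.93 CPM. Other relatives of Sparc did not follow it: Smoc1 fell from 12.9 ± 2.48 to 5.59 ± 0.58 CPM. Sparcl1 and Spock2 did not pass (edgeR adjusted p = 0.599 and 0.0930).

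Of 16 tested genes of hyaluronan synthesis, turnover and binding there were 6 falls, 2 rises and 8 that missed the threshold (median −0.31). Hmmr, a hyaluronan-binding protein that also acts on the mitotic spindle, fell from 24.0 ± 3.75 to 0.94 ± 0.60 CPM, beside 8 of 8 proliferation genes that fell. Cemip2, a cell surface hyaluronidase, fell from 30.7 ± 5.35 to 10.4 ± 2.88 CPM. Has3, another hyaluronan synthase, had 11.2 ± 2.18 and 12.5 ± 3.38 CPM and did not pass (edgeR adjusted p = 0.601). The 2 that rose were Stab1, a scavenger receptor of macrophages and endothelium, at 50.1 ± 19.3 and 91.7 ± 10.9 CPM, and the hyaluronidase Hyal1, at 6.03 ± 0.93 and 11.0 ± 1.55 CPM. Both rises ended with totals alone and without P14 replicate 3, and that of Stab1 also without P14 replicate 2 (adjusted p = 0.0585 in edgeR). Without P14 replicate 2, 3 genes of the list fell.

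Of 6 tested genes around versican cleavage 2 rose, 1 fell and 3 did not pass; with totals alone 2 rose and 2 fell. The versican-cleaving proteases Adamts5 and Adamts15 rose from 9.05 ± 2.02 to 36.3 ± 3.70 CPM and from 4.37 ± 0.30 to 16.4 ± 0.84 CPM, while Adamts1 fell from 49.2 ± 9.49 to 20.2 ± 2.43 CPM. Timp3, an inhibitor of such proteases, had 154 ± 32.9 and 137 ± 17.3 CPM (edgeR adjusted p = 0.526), and it fell with totals alone (adjusted p = 0.0299).

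Receptors for fibronectin and matricellular proteins were mixed, with 4 rises, 3 falls and 8 of 15 not past the threshold; with totals alone 1 rose and 4 fell. The fibronectin receptor subunits Itga5 and Itgb1 fell from 159 ± 42.8 to 92.0 ± 4.13 CPM and from 442 ± 102 to 252 ± 47.3 CPM, and Sdc1 fell from 14.0 ± 4.05 to 8.10 ± 0.36 CPM. The call of Itga5 ended without P1 replicate 3 (edgeR adjusted p = 0.0531), that of Itgb1 without P14 replicate 2 (0.0517) and that of Sdc1 without P1 replicate 1 (0.153) or any P14 replicate (0.0566 to 0.0757). The 4 that rose were Itgb6, Itga4, Cd47 and Ddr2. Itga4 stood at only 0.71 ± 0.32 and 1.81 ± 0.29 CPM. Its call ended with DESeq2 (DESeq2 adjusted p = 0.0531) and with totals alone (edgeR adjusted p = 0.145). It also ended without P1 replicate 1 or 3 or P14 replicate 1 or 2 (edgeR adjusted p = 0.0593 to 0.142). Itgb6, an epithelial integrin subunit that binds fibronectin and latent TGF-beta, went from 0.25 ± 0.13 to 10.2 ± 1.79 CPM. Ddr2 is a collagen receptor that is also counted among the fibroblast markers, and its ranges overlapped. The call of Ddr2 ended without P1 replicate 1 or 3 or P14 replicate 2 or 3 (edgeR adjusted p = 0.0597 to 0.0985). Leaving out P1 replicate 1, P1 replicate 3 or P14 replicate 2 gave 2 rises in the list, and leaving out P14 replicate 2 gave 1 fall.

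Col1a1, which encodes a chain of type I collagen, had 342 ± 132 CPM at P1 and 462 ± 99.5 at P14, and Col3a1 had 602 ± 113 and 785 ± 151 CPM; neither passed (edgeR adjusted p = 0.214 and 0.18). Without P1 replicate 1, Col1a1 rose (log2 fold change 0.77, edgeR adjusted p = 0.0270). Of 21 genes of collagens, fibrillar and other, and of collagen maturation 5 rose, 5 fell and 11 did not pass. With totals alone 1 rose and 9 fell. The falls were in P4ha3, a prolyl hydroxylase (from 13.4 ± 1.71 to 0.67 ± 0.51 CPM), Col12a1 (from 19.8 ± 1.43 to 3.29 ± 1.18 CPM), Col11a1, and the cross-linking enzymes Loxl2 (from 97.7 ± 15.7 to 38.0 ± 6.19 CPM) and Lox, whose call ended without P14 replicate 2 (adjusted p = 0.0726 in edgeR). The rises were in Loxl1, P4ha2, Plod1, Bmp1 and Col6a3, and the count of rises was 2 without any of P1 replicate 3, P14 replicate 2 and P14 replicate 3 in turn, and 3 without P14 replicate 1.

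Among 16 TGF-beta pathway genes were 5 falls, 2 rises and 9 that missed the threshold; with totals alone 8 fell and 2 rose. The ligand Tgfb2 fell from 18.5 ± 5.88 to 6.17 ± 1.43 CPM, the receptor Tgfbr2 from 57.2 ± 6.55 to 28.1 ± 5.48 CPM, Smad2 from 32.9 ± 7.22 to 14.4 ± 1.49 CPM and Smad3 from 31.0 ± 1.84 to 14.4 ± 1.16 CPM. Tgfbr1 also fell, and passed at an edgeR adjusted p = 0.0492 that became 0.234 without P1 replicate 2 and lay between 0.0673 and 0.161 without any P14 replicate. Tgfb1 had 26.2 ± 7.62 and 25.7 ± 6.06 CPM. The latent TGF-beta binding protein Ltbp4 rose from 66.2 ± 42.8 to 268 ± 52.4 CPM with a call that ended without P1 replicate 3 (0.0652) or P14 replicate 3 (0.0654). Basement membrane genes numbered 4 rises, 3 falls and 7 not past the threshold among 14. Leaving out P14 replicate 3, or using totals alone, gave 2 rises, and leaving out P14 replicate 2 gave 1 fall. With the replicate number as a block the rise of Lama5 lost its call (log2 fold change 1.07, edgeR adjusted p = 0.0630). The ranges of Lama5 overlapped, and it also missed the threshold with totals alone (edgeR adjusted p = 0.106). The same held without P1 replicate 2 or 3 or P14 replicate 2 or 3 (edgeR adjusted p = 0.0509 to 0.122).

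**Figure D4:**
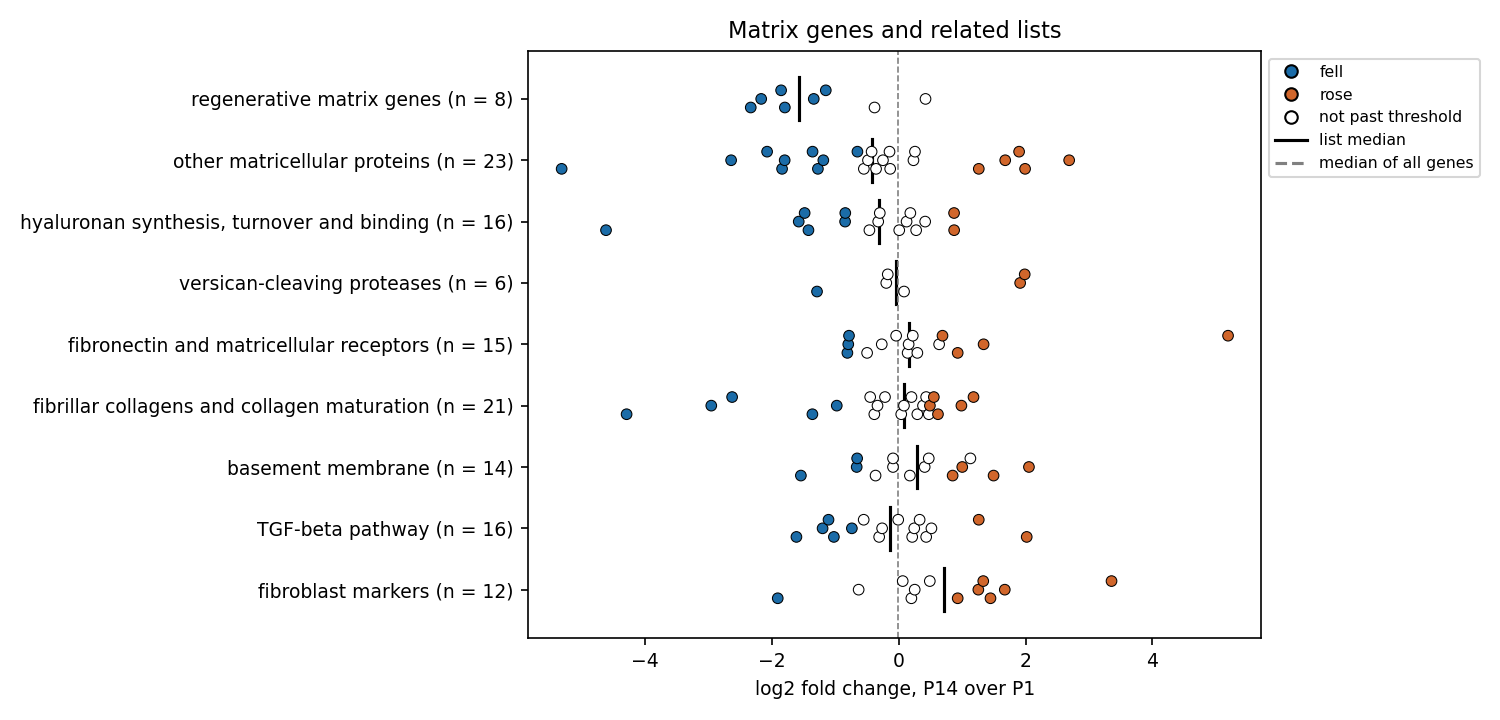
Log2 fold change of P14 over P1 (x axis) for each tested gene of the matrix genes and of 8 related lists (y axis, n in brackets); blue points fell, orange points rose, open points did not pass, bars are list medians and the dashed line is the median of all genes. The matrix genes have a median of −1.57, and the fibroblast markers have one of 0.71.

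Markers of the cell types that make these proteins moved in different directions, and their part in the changes of the matrix genes was not tested. The share called was 50% of the endothelial and 50% of the cardiomyocyte markers, near the 43.8% of all tested genes. It was 58.3% of the fibroblast, 60% of the epicardial and 62.5% of the endocardial and valve markers. For macrophage markers it was 80%, for smooth muscle and pericyte markers 88.9% and for granulocyte markers 100%. The lists are short, and their counts are given as description. Of 12 fibroblast markers 6 rose, 1 fell and 5 did not pass, and 2 fell with the replicate number as a block, without P1 replicate 2, with upper quartile scaling or with totals alone. Those that rose were Dcn, Col8a1, Ddr2, Mfap5, Gsn and Dpep1, and Cthrc1 fell from 3.61 ± 0.36 to 0.91 ± 0.46 CPM. The summed level of the 12 markers was 792 to 927 CPM at P1 and 1604 to 1752 CPM at P14, of which Gsn and Dcn made up 52.7% and 65.1%. The lineage markers Pdgfra (26.5 ± 4.55 and 31.7 ± 5.92 CPM) and Tcf21 (10.4 ± 2.50 and 6.63 ± 0.46 CPM) did not pass (edgeR adjusted p = 0.374 and 0.0636). With the replicate number as a block Tcf21 fell (log2 fold change −0.62, edgeR adjusted p = 0.0463), and it also fell without P1 replicate 2 (−0.80, adjusted p = 0.0106).

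Of 5 tested epicardial markers 3 fell (Tbx18, Aldh1a2 and Krt19), with a summed level of 36.9 to 55.6 CPM at P1 and 15.5 to 21.6 CPM at P14. Of 8 endocardial and valve markers 3 fell, 2 rose and 3 did not pass, with sums of 126 to 149 and 91.9 to 125 CPM; Cdh11, a cadherin of valve and mesenchymal cells, fell from 18.5 ± 3.06 to 2.93 ± 0.72 CPM. Granulocyte markers fell in 4 of 4, from a sum of 43.7 to 56.6 CPM to one of 5.92 to 8.02 CPM, and 8 of 10 macrophage markers rose, from 63.0 to 86.8 CPM to 262 to 304 CPM. Endothelial markers rose in 5 of 10, with sums of 1516 to 1540 and 2184 to 2503 CPM, and with totals alone 1 rose and 4 fell. Most of the difference between the sums lay in Fabp4, at 713 ± 84.6 and 1290 ± 202 CPM. Pecam1, Cdh5, Tek and Emcn lay below 0 (log2 fold changes −0.27, −0.40, −0.17 and −0.42) and did not pass. Kdr, at 0.44, did not pass either. Without P1 replicate 2, or without P14 replicate 1, 1 endothelial marker fell. Of the 10 cardiomyocyte markers 5 rose and 5 did not pass, with sums of 62626 to 67230 CPM at P1 and 89724 to 105484 CPM at P14. The count of cardiomyocyte rises was 3 with totals alone and 2 without P1 replicate 3 or without P14 replicate 2. Smooth muscle and pericyte markers rose in 6 of 9 and fell in 2, with sums of 1784 to 2693 and 1829 to 2237 CPM that overlapped. Acta2, which fell, made up most of these sums, at 1880 ± 460 and 1129 ± 205 CPM. Leaving out P1 replicate 3, P14 replicate 2 or P14 replicate 3 gave 1 fall in that list. Of 9 skeletal muscle and tendon markers only Acta1, Ckm and Tnnt3 were in the count table, and Myog, Myod1, Myh1, Myh4, Tnmd and Mkx were absent. Of these 3 tested genes 1 rose with the replicate number as a block, with DESeq2 or without P1 replicate 2. With totals alone or without P14 replicate 2, 1 fell, while all 3 missed the threshold otherwise. The summed level of the 8 proliferation genes was 371 to 422 CPM at P1 and 28.8 to 44.8 CPM at P14.

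**Figure D5:**
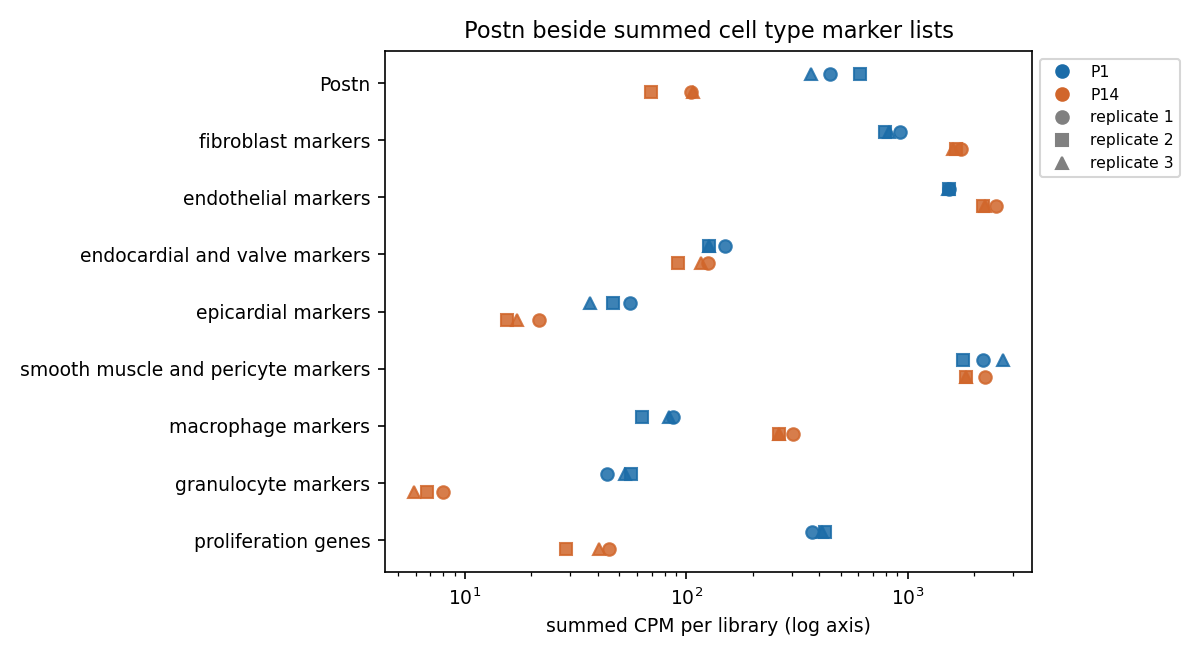
CPM of Postn and summed CPM of 8 marker lists in each library (log x axis), with 1 line of the y axis per list; colours are ages and symbols replicates. Postn and the epicardial, endocardial and valve, granulocyte and proliferation lists lie lower in all P14 libraries, and the fibroblast, endothelial and macrophage lists lie higher.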

How the data were processed

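Poly(A)-selected ventricular RNA was sequenced for 36 cycles, per the labels' protocols. The authors deposited a table of raw read counts per gene; per the submitters' processing notes the build was GRCm38 (mm10), and bedtools and edgeR 3.2.4 were named with no role. Sources used here do not name the aligner, counter, strand use or annotation. No gene has fewer than 60 counts in all. Columns were tied to samples by age and replicate number.

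Counts were analysed in R 4.3.3 with edgeR 4.0.16 (filterByExpr with a minimum count of 10, TMM scaling, robust quasi-likelihood F-test on age alone, adjusted over 14301 genes). The fit was checked on simulated counts in which few genes changed, as many up as down, which does not check the scaling. SE is the fitted coefficient over the square root of F. DESeq2 1.42.0, limma 3.58.1 (voom), other scalings, filters and thresholds, a replicate block and leaving out each library were alternatives. Deviations from group means correlated at 0.295, 0.112 and 0.102 between same-numbered libraries and at −0.214 to 0.090 between others. All same-numbered pairs passed a rule of over 0.1, the last narrowly. The labels do not say that the numbers pair the libraries, so SE and p come from age alone unless the block is named. The blocked value is given beside a named gene where it changes its call or direction. Exon lengths and positions are from GENCODE M21 (GRCm38; 14320 of 14495 identifiers found), promoters from RefSeq (GRCm38.p6). For a symbol on several rows, the row whose identifier carries it in GENCODE was used.

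The members and lists were chosen with earlier results of these data known. Genes eligible to be named were the members, up to 3 called genes per list with the largest change and a mean of at least 10 CPM at either age, 1 more against the list's main direction, and the 5 genes most like Postn. Genes named otherwise (such as Thbs2, Has3, Itga5, Col1a1, Col3a1, Timp3, Tgfb1, Smad3 and the full lists behind counts of 5 or fewer) were chosen after their values were seen. Not every eligible gene and not every listed gene is reported here. Pairing of the ratios was added after seeing the data.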

Additional observations from a re-analysis of the deposited data

How the results depend on the processing

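Postn, Tnc, Thbs4, Fn1 and Vcan kept their direction and call in all 16 alternatives, replicate block included, where 6 members were called and the log2 fold change of Postn was −2.32. The call of Thbs1 ended when a change above 1.5-fold was asked for (log2 fold change −1.15). With library totals alone Sparc turned to −0.028 and Cd44 passed at −0.84. The number of genes called between P1 and P14 was 6264, and it was 4135 at an adjusted p under 0.01 and 3403 with a change above 1.5-fold, and 4656 to 6710 when a library was left out. The median of the members relative to all genes was −1.69 to −1.43 over the alternatives. The block changed no call of a member. The planned ratios with Has2 were not run. Values rest on 41 or more counts per library for the members, 3 pools per age limit the precision, and a missed threshold for Cd44 and Sparc does not show that they were unchanged. Among genes named beside the members, with totals alone Has3 turned to −0.26, Col1a1 to −0.026, Col3a1 to −0.095, Pdgfra to −0.23 and Ckm to −0.14. Tgfb1, near 0, was 0.053 with voom and 0.0060 with the block. With a library left out, Has3 ranged from −0.046 to 0.35, Timp3 from −0.25 to 0.015, Tgfb1 from −0.22 to 0.19 and Ckm from −0.098 to 0.80. The causes were not tested.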
